A study of Mus musculus with 8 samples.

Results

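The progression from G1 into S phase is set by D-type cyclins, their kinase partners, the inhibitors of those kinases and the retinoblastoma protein. Measured here were 10 mouse genes of this machinery: the D-type cyclins Ccnd1, Ccnd2 and Ccnd3, the kinases Cdk4 and Cdk6, the kinase inhibitors Cdkn1a (p21), Cdkn1b (p27), Cdkn1c (p57) and Cdkn2c (p18), and Rb1. Members were found by gene symbol in the platform's annotation, which gave 27 of the 45101 probe sets and 10 of the 18194 genes on the array. For each gene the probe set that was brightest on average across the 8 arrays leads, and the others check it. All 10 genes passed the filter on low values.

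The cells were mammary epithelial cells of mice carrying a germline knockout of the transcription factor gene Cebpb (KO) and of wildtype mice (WT), from 2 paired sets of glands with 10 mice per group. They were sorted as lineage-negative (LIN-) cells into CD24+CD29hi cells (CD29hi) and CD24hiCD29lo cells (CD29lo). This gave KO CD29hi, WT CD29hi, KO CD29lo and WT CD29lo, with 2 arrays each that the labels call biological replicates. Because the knockout is germline, the deletion was present in every cell of a KO gland, not in the epithelium alone. The sources used here do not state the age and strain of the mice, which part of Cebpb was deleted or how pure the sorts were. In bulk samples, fewer cells of a type and less RNA per cell cannot be told apart.

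D-type cyclins accumulate when cells receive growth signals, bind Cdk4 or Cdk6 and activate them to phosphorylate the retinoblastoma protein, which then releases E2F transcription factors that switch on S-phase genes. Inhibitors of the INK4 family, such as p18, bind Cdk4 and Cdk6 directly, whereas the Cip/Kip inhibitors p21, p27 and p57 bind cyclin-kinase complexes, those of Cdk2 included. In the mammary gland, cyclin D1 is known for its requirement in the growth of the alveolar epithelium in pregnancy, and C/EBPb for its requirement in ductal and alveolar development.

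Promoter sequences from RefSeq, on mouse build GRCm38.p6, were held for 6 of the 10 genes, Ccnd3, Cdk4, Cdk6, Cdkn1a, Cdkn1b and Cdkn2c, in 9 windows of the 250 bases before an annotated start. The windows of Cdk4 and Cdkn1b are shown because these genes differed between the gates in opposite directions. They lie at chr10:127063285-127063534 and chr6:134920151-134920400, both on the plus strand. Capitals mark the E-box CACGTG and the GC box GGGCGG in Cdk4, which is on the other strand there, and the GC box and the CCAAT box in Cdkn1b.
Cdk4: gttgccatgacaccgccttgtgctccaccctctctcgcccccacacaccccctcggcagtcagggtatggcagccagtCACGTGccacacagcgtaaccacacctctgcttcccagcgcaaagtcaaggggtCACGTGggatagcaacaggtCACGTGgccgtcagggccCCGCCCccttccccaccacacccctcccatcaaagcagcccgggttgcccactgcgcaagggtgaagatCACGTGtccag
Cdkn1b: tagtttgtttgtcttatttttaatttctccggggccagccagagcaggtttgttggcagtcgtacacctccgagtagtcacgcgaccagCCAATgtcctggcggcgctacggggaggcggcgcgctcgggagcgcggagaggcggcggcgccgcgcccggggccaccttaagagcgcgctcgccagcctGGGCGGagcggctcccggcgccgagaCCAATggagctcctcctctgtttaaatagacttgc
The 4 E-boxes of Cdk4 begin 172, 118, 98 and 11 bases before the start. At least 1 E-box stands in 6.02% of the 32851 promoter windows of this length, and 7 windows (0.021%) hold 4 or more. The only other E-box among the 9 windows is in Cdk6, 220 bases before its start. In Cdkn1b the CCAAT boxes begin 161 and 35 bases before the start and the GC box 61 bases before it. CCAAT stands in 33.85% of all windows and GGGCGG in 32.74%. The C/EBP motif TTGCNNAA was found in 0 of the 9 windows, against 9.56% of all windows. The E2F motifs TTTCGCGC, TTTGGCGC and TTTCCCGC were also found in 0 of the 9, against 1.53% of all. Both strands were searched, and no match overlapped one of another motif. These are matches of letters in a short window, with no measurement of binding.

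Cebpb itself checked the genotype labels. Its array level, on the log2 scale as all levels below, was 8.60 and 9.38 in KO CD29hi, 11.95 and 12.25 in WT CD29hi, 9.23 and 8.89 in KO CD29lo, and 11.83 and 12.18 in WT CD29lo. The array background, taken from control probe sets, lay between 3.84 and 4.41. The gates carried the markers of their labels: the basal keratin Krt5 was at 12.39 to 12.68 on the CD29hi arrays and 6.75 to 7.66 on the CD29lo arrays, and the luminal keratin Krt8 at 11.62 to 11.98 in CD29hi and 12.55 to 12.65 in CD29lo. Fibroblast markers were unequal among the CD29lo arrays. The summed linear level of 11 such genes was 2808 and 2937 in KO CD29hi, 1247 and 2081 in WT CD29hi, 3935 and 26619 in KO CD29lo, and 12552 and 37556 in WT CD29lo, with 9 to 11 of the 11 genes above background. Of 10 blood markers 8 were measured, and 3 to 5 of them were above background on any array. Of 6 endothelial markers, 5 or 6 were.

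Between the gates, 3 of the 10 genes passed the test with both genotypes averaged. Cdkn1b was lower in CD29hi, and Cdk4 and Ccnd2 were higher there. Over all 14598 genes tested, 22.9% passed in that comparison (12.2% higher and 10.8% lower in CD29hi), so the share among the members lies near the background. These 3 were also the members whose 4 CD29hi arrays did not overlap with the 4 CD29lo arrays, which held for 13.2% of all genes in the higher and 12.1% in the lower direction. Within KO, Cdkn1b alone passed, against 14.1% of all genes, and within WT Cdkn1b alone passed, against 8.19% of all genes. The averaged comparison was added after the values had been seen and uses the same arrays as those within KO and WT. Tests are limma's moderated tests, two-sided, with a threshold of 0.05 on p-values adjusted over all genes tested.

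Between KO and WT, 0 of the 10 genes passed by limma in either gate or averaged over both. At an unadjusted p under 0.05 there were 3 in CD29hi (Ccnd1, Cdkn1c and Cdkn2c), 1 in CD29lo (Cdk6) and 2 averaged (Ccnd1 and Cdkn1c). Of all genes, 0.0137% passed in CD29hi, 0.0137% in CD29lo and 0.0685% averaged, and 7.84%, 6.68% and 9.27% had an unadjusted p under 0.05. The test of whether the genotype difference itself differed between the gates (the interaction) passed for 0 of the 10 genes and for 0.0% of all. At an unadjusted p under 0.05 it gave Cdk6 and Cdkn2c, against 4.95% of all genes. With 2 arrays per group the precision is limited, and a gene that missed the threshold is not shown to be equal between groups.

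**Figure D1:**
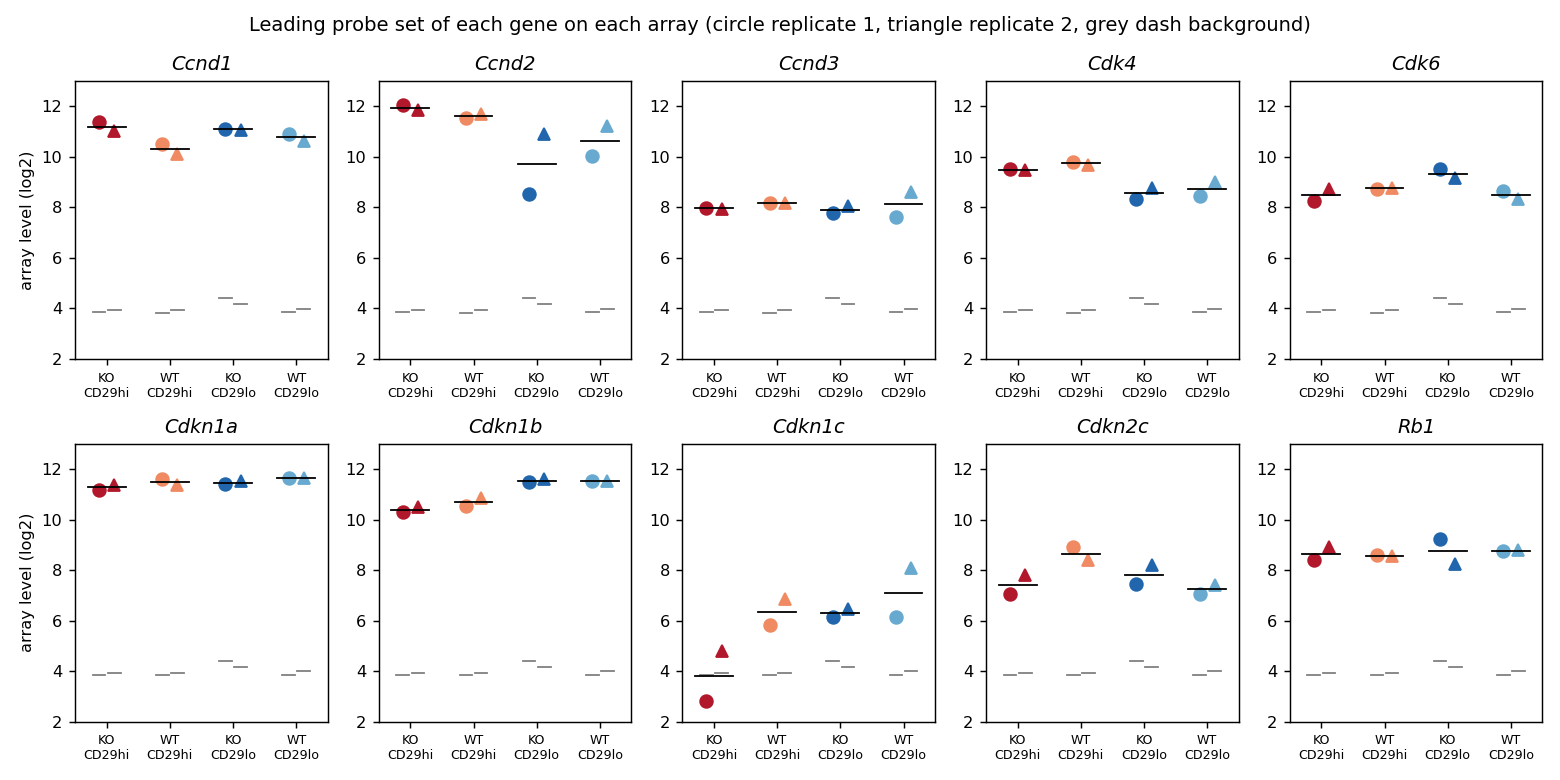
Array level (log2) of the leading probe set of each of the 10 genes, with circles for replicate 1, triangles for replicate 2, black lines for group means and grey dashes for each array's background. Cdkn1b is lower and Cdk4 higher on all 4 CD29hi arrays than on all 4 CD29lo arrays, and Cdkn1c reaches the background on 1 KO CD29hi array.

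Cyclin D1 (Ccnd1) is the D-type cyclin whose loss impairs pregnancy-related mammary growth in mice. Its level was 11.36 and 11.03 in KO CD29hi, 10.51 and 10.13 in WT CD29hi, 11.11 and 11.08 in KO CD29lo, and 10.91 and 10.64 in WT CD29lo. All 4 KO arrays lay above all 4 WT arrays, a pattern that 1.24% of the genes tested showed in that direction. The KO minus WT log2 fold change was 0.88 ± 0.19 in CD29hi (± SE, 95% interval 0.45 to 1.30, unadjusted p = 0.00144, adjusted p = 0.297), or 1.83-fold. It was 0.32 ± 0.19 in CD29lo (adjusted p = 0.800). Averaged over the gates it was 0.60 ± 0.13, or 1.51-fold (95% interval of the fold 1.23 to 1.87, unadjusted p = 0.00179, adjusted p = 0.228). Intervals are per gene and carry no correction for the number of genes.

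The other probe sets of Ccnd1 gave averaged KO minus WT differences of 0.79 ± 0.16 (adjusted p = 0.241) and 1.02 ± 0.31 (adjusted p = 0.407). All 3 probe sets therefore stood higher in KO on average, and none passed. Only the leading one separated all KO from all WT arrays. In the second, WT CD29lo replicate 1 (10.19) lay above KO CD29hi replicate 2 (9.85). The same arrays overlapped in the third (9.12 and 8.78). The interaction was 0.56 ± 0.26 for the leading probe set (adjusted p = 0.961). For the other probe sets, in the order above, it was 0.275 ± 0.33 and 0.025 ± 0.61 (adjusted p = 0.984 and 0.999). Their KO minus WT differences were 0.93 ± 0.23 and 1.03 ± 0.43 in CD29hi (adjusted p = 0.360 and 0.669). In CD29lo they were 0.655 ± 0.23 and 1.005 ± 0.43 (adjusted p = 0.707 and 0.764). The smaller difference in CD29lo was thus clearest in the leading probe set, and a dependence on the gate is not shown. Between the gates, the leading probe set differed by 0.10 ± 0.19 in KO and -0.46 ± 0.19 in WT, with adjusted p of 0.784 and 0.200. The second probe set was lower in CD29hi with the genotypes averaged, at -0.68 ± 0.16 (adjusted p = 0.0194). The leading one gave -0.18 ± 0.13 (adjusted p = 0.381) and the third -0.30 ± 0.31 (adjusted p = 0.549). All 3 lay below 0 in that comparison, and only the second passed.

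**Figure D2:**
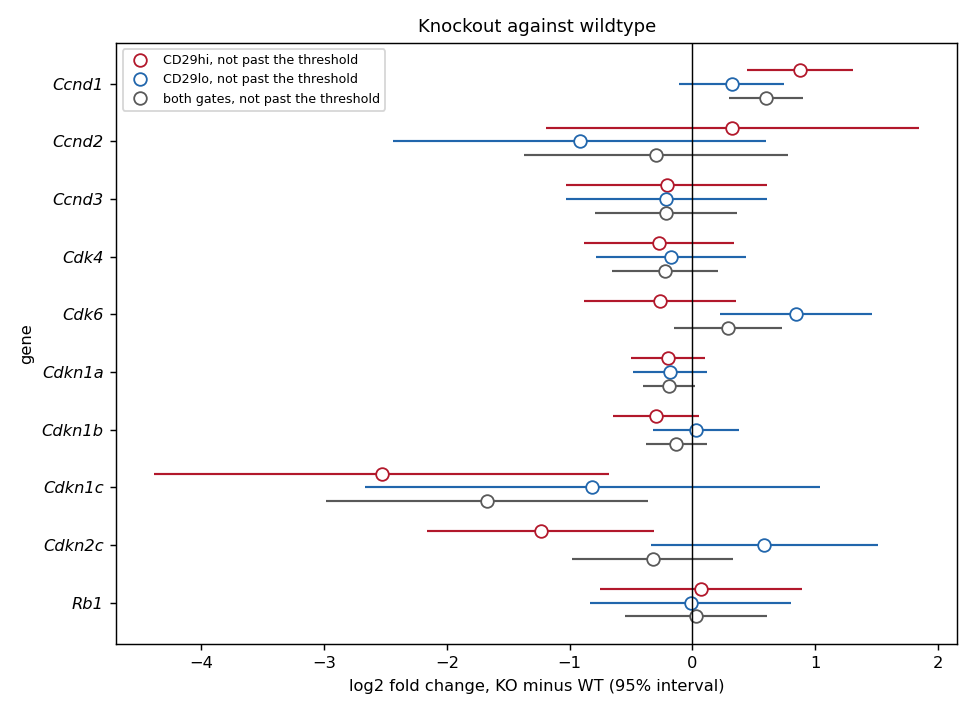
KO minus WT log2 fold change of the leading probe set of each gene with its 95% interval, in CD29hi, in CD29lo and averaged over the gates. Open circles mark differences not past the threshold, which holds for all 10 genes. The Ccnd1 interval lies above 0 in CD29hi (0.45 to 1.30), and those of Cdkn1c (-4.38 to -0.68) and Cdkn2c (-2.16 to -0.31) lie below 0 there.

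Cyclin D2 (Ccnd2), which can pair with the same kinases, was at 12.04 and 11.85 in KO CD29hi, 11.55 and 11.69 in WT CD29hi, 8.52 and 10.89 in KO CD29lo, and 10.03 and 11.22 in WT CD29lo. All 4 CD29hi arrays lay above all 4 CD29lo arrays, and the CD29lo arrays were spread far more widely than the CD29hi arrays. Over both genotypes Ccnd2 was higher in CD29hi by 1.62 ± 0.47 (adjusted p = 0.0399), or 3.07-fold (95% interval 1.46 to 6.47). Within KO the difference was 2.24 ± 0.66 (adjusted p = 0.0590) and within WT 0.99 ± 0.66 (adjusted p = 0.438), and neither passed. These sizes rest on single CD29lo arrays: the KO value was 1.06 without KO CD29lo replicate 1 (adjusted p = 0.152) and 3.42 without replicate 2 (adjusted p = 0.00360), and the WT value 0.40 without WT CD29lo replicate 1 and 1.59 without replicate 2 (adjusted p = 0.869 and 0.330). KO CD29lo replicate 1 and WT CD29lo replicate 2 were the lowest and the highest of the CD29lo arrays in Ccnd2. Without both, the difference was 1.06 within KO and 1.59 within WT. That fit leaves 1 array in each CD29lo group and takes its spread from the CD29hi arrays alone, so no call is read from it. Ccnd2 passed within KO by the filter at the 50th percentile (adjusted p = 0.0484), the mean of probe sets (0.0331) and array weights (0.0441). The call over both genotypes was lost when 1 array was left out in 5 of 8 cases: omitting the first KO CD29hi array gave an adjusted p of 0.113, the second 0.0840, the first WT CD29hi array 0.0983, the second 0.107 and the first WT CD29lo array 0.126. It was also lost by eBayes without a trend (adjusted p = 0.0948) and with values raised to at least 4 (adjusted p = 0.0597). Its value over both genotypes was 1.02 to 2.21 with 1 array left out, lowest without KO CD29lo replicate 1.

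Each of the other 6 Ccnd2 probe sets was higher in CD29hi, by 2.38 to 3.41 with the genotypes averaged, with adjusted p between 0.00421 and 0.0234. Within KO all 6 passed as well, at 3.04 to 4.39, and within WT none did, at 1.71 to 2.43. The upper ends of the averaged and KO ranges come from 1 probe set that was below background in KO CD29lo replicate 1 (4.15, against a background of 4.41), so those 2 sizes are uncertain. That probe set also gave the upper end of the WT range, where it was above background on every array. The leading probe set, chosen as the brightest, gave the smallest difference of the 7. The order of the 4 CD29lo arrays in Ccnd2 was also their order in the summed fibroblast markers. KO CD29lo replicate 1 was lowest in both and WT CD29lo replicate 2 highest in both. On the CD29hi arrays the fibroblast sum was lower and Ccnd2 higher than in CD29lo. The part of the fibroblast markers in the Ccnd2 values was not tested. Between genotypes, Ccnd2 differed by 0.33 ± 0.66 in CD29hi (adjusted p = 0.965) and -0.92 ± 0.66 in CD29lo (adjusted p = 0.839).

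**Figure D3:**
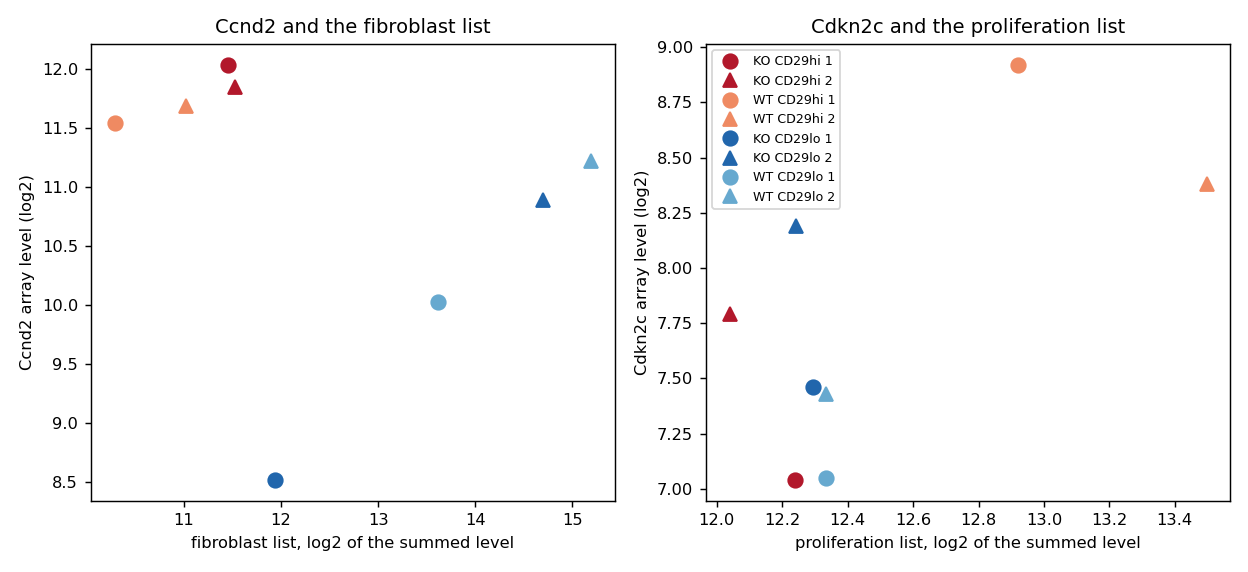
Array level (log2) of Ccnd2 against the log2 of the summed fibroblast markers (left) and of Cdkn2c against that of the summed proliferation genes (right), 1 point per array. Among the CD29lo arrays Ccnd2 is higher where the fibroblast sum is higher, while the CD29hi arrays have high Ccnd2 at low sums. The WT CD29hi arrays are highest in both Cdkn2c and the proliferation sum.

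Cyclin D3 (Ccnd3), the remaining D-type cyclin, was read differently by its probe sets. The leading one was at 7.99 and 7.94 in KO CD29hi, 8.18 and 8.17 in WT CD29hi, 7.76 and 8.05 in KO CD29lo, and 7.63 and 8.61 in WT CD29lo. The second was at 3.17 and 4.83 in KO CD29hi, 4.04 and 4.80 in WT CD29hi, 7.12 and 6.98 in KO CD29lo, and 8.14 and 7.27 in WT CD29lo. The leading one overlapped between the gates and the second separated them completely, with KO CD29hi replicate 1 below background. With the genotypes averaged, the leading probe set gave 0.06 ± 0.25 (CD29hi minus CD29lo, adjusted p = 0.897) and the second -3.17 ± 0.43 (adjusted p = 0.00121). The second passed within KO (-3.05 ± 0.60, adjusted p = 0.0129) and within WT (-3.28 ± 0.60, adjusted p = 0.0137). The dimmest of its probe sets was above background on 1 of 8 arrays. What the second probe set binds was not checked here, so no direction between the gates is given for Ccnd3. Its genotype differences, by the leading probe set, were -0.21 ± 0.36 in CD29hi and -0.21 ± 0.36 in CD29lo, with adjusted p of 0.952 and 0.933.

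**Figure D4:**
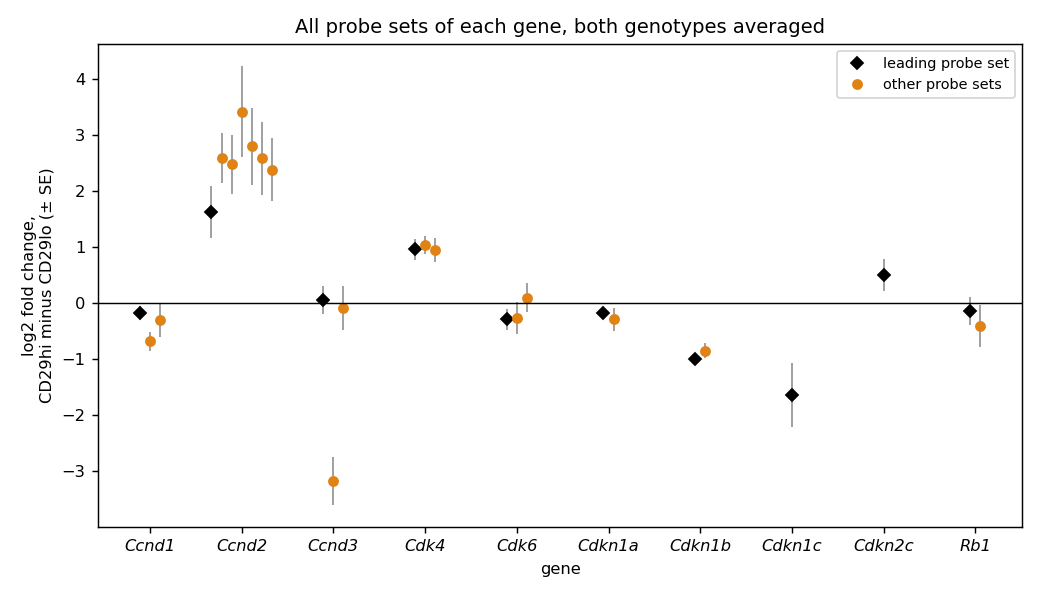
CD29hi minus CD29lo log2 fold change (± SE, genotypes averaged) of all 27 probe sets, with a black diamond for the leading probe set of each gene and orange circles for the others. The 3 probe sets of Cdk4 and the 2 of Cdkn1b lie together, the 7 of Ccnd2 share a direction, and the second of Ccnd3 stands at -3.17 while its leading one is at 0.06.

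Cdk4, a catalytic partner of the D-type cyclins, was at 9.50 and 9.46 in KO CD29hi, 9.81 and 9.69 in WT CD29hi, 8.35 and 8.78 in KO CD29lo, and 8.47 and 9.01 in WT CD29lo. Every CD29hi array lay above every CD29lo array, without overlap. Among the 4 CD29lo arrays the order in Cdk4 was, as for Ccnd2, the order in the summed fibroblast markers, lowest in KO CD29lo replicate 1 and highest in WT CD29lo replicate 2, and the part of those markers was not tested. With the genotypes averaged Cdk4 was higher in CD29hi by 0.96 ± 0.19 (adjusted p = 0.00805), or 1.95-fold (95% interval 1.45 to 2.63). Within KO the difference was 0.92 ± 0.27 (adjusted p = 0.0553) and within WT 1.01 ± 0.27 (adjusted p = 0.0562), each just short of the threshold. It passed within KO by quantile normalization (adjusted p = 0.0478), the filter at the 50th percentile (0.0459), the mean of probe sets (0.0334) and without WT CD29lo replicate 1 (0.0499). Within WT it passed under 8 alternatives, with adjusted p of 0.0302 to 0.0497, among them leaving out KO CD29lo replicate 1 (0.0460) or 2 (0.0460). The interaction was -0.10 ± 0.38 (95% interval -0.96 to 0.77).

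The other Cdk4 probe sets gave 1.03 ± 0.16 (adjusted p = 0.00244) and 0.95 ± 0.21 (adjusted p = 0.0148) over both genotypes, and the second also passed within KO (adjusted p = 0.0179) and within WT (adjusted p = 0.0312). All 3 probe sets thus gave a difference of about the same size. The call over both genotypes held under every alternative run. Between KO and WT the differences were -0.27 ± 0.27 in CD29hi and -0.17 ± 0.27 in CD29lo (adjusted p = 0.895 and 0.924).

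Cdk6, the other D-cyclin-dependent kinase, was at 8.26 and 8.71 in KO CD29hi, 8.72 and 8.78 in WT CD29hi, 9.50 and 9.16 in KO CD29lo, and 8.63 and 8.35 in WT CD29lo. The KO CD29lo arrays were the 2 highest of the 8. How many of all genes show such an order was not counted. The KO minus WT difference in CD29lo was 0.84 ± 0.27, or 1.79-fold (95% interval 1.17 to 2.75), with an unadjusted p of 0.0138 and an adjusted p of 0.658. In CD29hi it was -0.27 ± 0.27 (adjusted p = 0.900). The interaction was -1.11 ± 0.38 (unadjusted p = 0.0194, adjusted p = 0.961). Between the gates, Cdk6 gave -0.85 ± 0.27 in KO (adjusted p = 0.0748) and 0.26 ± 0.27 in WT (adjusted p = 0.639). Among the CD29lo arrays, Cdk6 was highest in KO CD29lo replicate 1 and lowest in WT CD29lo replicate 2. These were the lowest and the highest in the summed fibroblast markers, and the other CD29lo arrays did not follow that order. Without both, KO minus WT in CD29lo was 0.53, the lowest of the alternatives. The part of those markers was not tested.

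The other 2 Cdk6 probe sets gave KO minus WT differences in CD29lo of 0.74 ± 0.40 (adjusted p = 0.808) and 1.46 ± 0.36 (unadjusted p = 0.00333, adjusted p = 0.590). All 3 thus stood higher in KO CD29lo, and none passed. In contrast to Cdk4, whose 3 probe sets were higher in CD29hi, no Cdk6 probe set passed between the gates with the genotypes averaged, at -0.29 ± 0.19, -0.27 ± 0.28 and 0.10 ± 0.26. The difference between the 2 kinases was not tested.

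Among the Cip/Kip inhibitors, p27 (Cdkn1b), which binds and restrains cyclin E-Cdk2 complexes and is held by cyclin D complexes, differed most clearly between the gates. Its level was 10.28 and 10.50 in KO CD29hi, 10.53 and 10.84 in WT CD29hi, 11.48 and 11.61 in KO CD29lo, and 11.51 and 11.52 in WT CD29lo. All 4 CD29hi arrays lay below all 4 CD29lo arrays, and the CD29lo arrays fell within a narrow range. Cdkn1b was lower in CD29hi, with log2 fold changes of -1.16 ± 0.15 in KO (2.23-fold lower, adjusted p = 0.00243), -0.83 ± 0.15 in WT (1.78-fold lower, adjusted p = 0.0136), and -0.99 ± 0.11 with the genotypes averaged (1.99-fold lower, adjusted p = 0.000463).

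The second Cdkn1b probe set gave -1.04 ± 0.19 in KO (adjusted p = 0.00949), -0.65 ± 0.19 in WT (adjusted p = 0.0819) and -0.85 ± 0.14 averaged (adjusted p = 0.00283). The leading probe set no longer passed within WT when the first WT CD29hi array (adjusted p = 0.0735) or either WT CD29lo array was omitted (adjusted p = 0.0778 for the first and 0.0707 for the second). It also missed the threshold there by eBayes without a trend (adjusted p = 0.0898) and without KO CD29lo replicate 1 and WT CD29lo replicate 2 together (adjusted p = 0.0658). The calls within KO and over both genotypes held under every alternative run. Between genotypes the difference was -0.29 ± 0.15 in CD29hi (adjusted p = 0.729) and 0.03 ± 0.15 in CD29lo (adjusted p = 0.975). The interaction was -0.33 ± 0.22 (adjusted p = 0.961), so the gate difference is not shown to depend on the genotype.

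**Figure D5:**
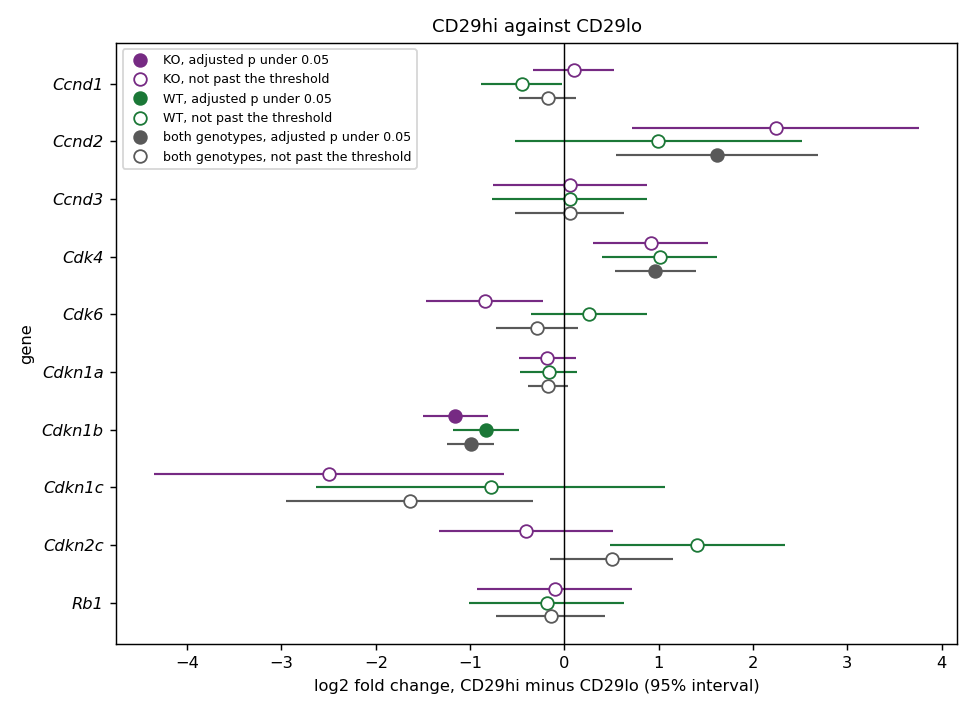
CD29hi minus CD29lo log2 fold change of the leading probe set of each gene with its 95% interval, in KO, in WT and with both genotypes averaged. Filled circles mark adjusted p under 0.05. Cdkn1b is filled in all 3, at -1.16, -0.83 and -0.99, and Ccnd2 (1.62) and Cdk4 (0.96) are filled with the genotypes averaged.

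p21 (Cdkn1a), a stress-inducible inhibitor of cyclin-dependent kinases, was at 11.17 and 11.38 in KO CD29hi, 11.60 and 11.35 in WT CD29hi, 11.40 and 11.51 in KO CD29lo, and 11.64 and 11.64 in WT CD29lo. The gate difference over both genotypes was -0.17 ± 0.09 (95% interval -0.39 to 0.04, adjusted p = 0.225). KO minus WT was -0.19 ± 0.09 averaged over the gates (95% interval -0.41 to 0.02, adjusted p = 0.582). The second probe set gave -0.29 ± 0.20 and -0.22 ± 0.20 for these contrasts (adjusted p = 0.353 and 0.812).

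p57 (Cdkn1c), an imprinted Cip/Kip inhibitor, had a single probe set. It was at 2.81 and 4.79 in KO CD29hi, 5.81 and 6.85 in WT CD29hi, 6.14 and 6.45 in KO CD29lo, and 6.13 and 8.09 in WT CD29lo. Both KO CD29hi arrays lay below the other 6 arrays, and 1 of them was under the background. The share of all genes with such an order was not counted. KO minus WT was -2.53 ± 0.81 in CD29hi (95% interval -4.38 to -0.68, unadjusted p = 0.0134, adjusted p = 0.487) and -0.81 ± 0.81 in CD29lo (adjusted p = 0.883). CD29hi minus CD29lo was -2.50 ± 0.81 in KO (adjusted p = 0.0778) and -0.78 ± 0.81 in WT (adjusted p = 0.638). Over both genotypes it was -1.64 ± 0.57 (adjusted p = 0.0743), which passed without KO CD29hi replicate 2 (-2.13, adjusted p = 0.0361) or without WT CD29lo replicate 1 (-2.13, adjusted p = 0.0398). The fitted difference rests in part on a value below background, and its size is uncertain for that reason.

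The INK4 inhibitor p18 (Cdkn2c), which binds Cdk4 and Cdk6, also had a single probe set. It was at 7.04 and 7.79 in KO CD29hi, 8.92 and 8.38 in WT CD29hi, 7.46 and 8.19 in KO CD29lo, and 7.05 and 7.43 in WT CD29lo. The WT CD29hi arrays were the 2 highest of the 8, an order whose share over all genes was not counted. KO minus WT was -1.24 ± 0.40 in CD29hi (95% interval -2.16 to -0.31, unadjusted p = 0.0148, adjusted p = 0.492) and 0.58 ± 0.40 in CD29lo (adjusted p = 0.830). The interaction was -1.82 ± 0.57 (unadjusted p = 0.0122, adjusted p = 0.961). Between the gates it gave 1.41 ± 0.40 in WT (adjusted p = 0.0742) and -0.41 ± 0.40 in KO (adjusted p = 0.563).

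The sum of proliferation genes was highest on the same arrays as Cdkn2c, those of WT CD29hi, though in the opposite order within that group. Not every gene of the list followed the sum. Mcm6 was at 10.53 and 10.61 in WT CD29hi, 10.96 and 11.13 in KO CD29lo, and 10.93 and 10.71 in WT CD29lo. The summed linear level of the 16 measured genes of a 17-gene list was 4836 and 4210 in KO CD29hi, 7752 and 11564 in WT CD29hi, 5022 and 4845 in KO CD29lo, and 5159 and 5157 in WT CD29lo. All 16 were above background on both WT CD29hi arrays and 11 to 14 on the others. Their part in the Cdkn2c values was not tested.

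Rb1, the retinoblastoma protein gene and the substrate of the cyclin D kinases, was at 8.38 and 8.91 in KO CD29hi, 8.60 and 8.55 in WT CD29hi, 9.25 and 8.25 in KO CD29lo, and 8.75 and 8.78 in WT CD29lo. No group stood apart from the others, and the KO CD29lo arrays alone spanned the values of all the rest. The gate difference over both genotypes was -0.15 ± 0.25 (95% interval -0.73 to 0.43, adjusted p = 0.726). KO minus WT averaged over the gates was 0.03 ± 0.25 (95% interval -0.55 to 0.61, adjusted p = 0.984). A second Rb1 probe set, below background in WT CD29hi replicate 2, did not follow the leading one. It gave 0.81 ± 0.53 for KO minus WT in CD29hi (adjusted p = 0.841) and -1.01 ± 0.53 for the gates within WT (adjusted p = 0.331), where the leading one gave 0.07 ± 0.36 and -0.19 ± 0.36, and neither probe set passed in any contrast.

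Other genes of the G1/S pathway were described from a list of 38, of which 37 had a value and were tested. Between the gates, 4 were higher and 3 lower in CD29hi within KO, 3 higher and 1 lower within WT, and 7 higher and 3 lower with the genotypes averaged. Of all genes tested, 7.41% were higher and 6.66% lower within KO, 3.96% higher and 4.23% lower within WT, and 12.2% higher and 10.8% lower over both. The list medians were 0.14, 0.08 and 0.08 on the log2 scale, against medians of 0.03, 0.00 and 0.01 over all genes tested. The calls thus went both ways, and the 7, 4 and 10 calls among 37 genes lie near the 14.1%, 8.19% and 22.9% of all genes called.

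Mycn, a MYC-family transcription factor, had both KO CD29lo and both WT CD29lo arrays at or below background. It was at least 2.82-fold higher in CD29hi within KO (adjusted p = 0.00905) and at least 8.96-fold higher within WT (adjusted p = 0.00508). For these folds, array values below background in the CD29lo groups were raised to it. The adjusted p-values come from the fit to the values as deposited and do not test these folds. This holds for the "at least" folds below too. Cdc25a, a phosphatase that activates Cdk2, averaged 8.61 in KO CD29hi against 7.29 in KO CD29lo (adjusted p = 0.0193), and 8.76 in WT CD29hi against 7.59 in WT CD29lo (adjusted p = 0.0443). Both passed in the same direction in both genotypes.

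Cdkn2b (p15), an INK4 inhibitor like p18, was lower in CD29hi within KO, at a mean of 7.48 against 10.02 in KO CD29lo (-2.54 ± 0.44, adjusted p = 0.00787), and with the genotypes averaged (-2.02 ± 0.31, adjusted p = 0.00268). Ccng2, which encodes an unconventional cyclin, was lower in CD29hi within KO (-1.64 ± 0.29, adjusted p = 0.00811). Its relative Ccng1 was lower in CD29hi within WT (-0.71 ± 0.14, adjusted p = 0.0192) and over both genotypes (-0.65 ± 0.10, adjusted p = 0.00268). Cdkn3, a phosphatase that acts on cyclin-dependent kinases, was at least 5.67-fold higher in CD29hi within WT (adjusted p = 0.0192), with both WT CD29lo arrays at or below background.

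Of the proliferation genes 15 were tested between the gates. Within WT 4 were higher in CD29hi and 0 lower, against 3.96% and 4.23% of all genes, with a median of 1.91. Tpx2, a spindle assembly factor, was higher by 3.15 ± 0.55 (adjusted p = 0.0111), Rrm2, a subunit of ribonucleotide reductase, by 2.41 ± 0.46 (adjusted p = 0.0160) and the proliferation marker Mki67 by 2.67 ± 0.63 (adjusted p = 0.0370). The spindle checkpoint kinase Bub1 was at least 7.78-fold higher (adjusted p = 0.0300). Within KO 0 were higher in CD29hi and 2 lower, against 7.41% and 6.66% of all genes, with a median of -0.04: the replication helicase subunit Mcm6 (-1.14 ± 0.15, adjusted p = 0.00259) and the mitotic kinase Cdk1 (-2.40 ± 0.67, adjusted p = 0.0497). With the genotypes averaged, Mcm6 was lower (-0.70 ± 0.11, adjusted p = 0.00268) and Rrm2 (1.88 ± 0.33, adjusted p = 0.00449), Mcm3 (0.93 ± 0.23, adjusted p = 0.0241) and Pcna (0.40 ± 0.10, adjusted p = 0.0230) were among the 4 that were higher.

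Between genotypes, 0 of the 37 pathway genes and 0 of the 15 proliferation genes passed by limma in any of the 4 contrasts. At an unadjusted p under 0.05 in CD29hi there were 6 pathway genes and 11 proliferation genes, and all 15 proliferation differences were below 0, with a median of -1.82 against -0.02 over all genes. In CD29lo there were 1 and 0, and averaged over the gates 6 and 9. Of all genes tested, 7.84% had such a p in CD29hi, 6.68% in CD29lo and 9.27% averaged. The smallest p-values in CD29hi were those of Tpx2 (-3.56 ± 0.55, adjusted p = 0.169) and the survivin gene Birc5 (-3.41 ± 0.54, adjusted p = 0.169), with 1 of the KO CD29hi arrays under the background for each. In the pathway list they were those of Ccng2 (-1.17 ± 0.29, adjusted p = 0.320) and Cdkn3 (-2.13 ± 0.56, adjusted p = 0.336). For the interaction 2 pathway genes and 7 proliferation genes had an unadjusted p under 0.05, against 4.95% of all genes. Tpx2 was at -3.76 ± 0.78 and Cdk1 at -4.30 ± 0.95 (adjusted p = 0.950 for both).

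In CD29lo the smallest p-values belonged to Ccng1 (-0.34 ± 0.14, adjusted p = 0.741), Tfdp2, a dimer partner of E2F factors (-0.96 ± 0.45, adjusted p = 0.749), the mitotic cyclin gene Ccnb2 (-1.37 ± 0.66, adjusted p = 0.751) and Mcm3 (-0.66 ± 0.33, adjusted p = 0.761). Averaged over the gates they belonged to Tfdp2 (-1.14 ± 0.32, adjusted p = 0.335), Cks1b, a small subunit of cyclin-dependent kinases (-0.84 ± 0.29, adjusted p = 0.406), and Birc5 (-1.93 ± 0.38, adjusted p = 0.186). The leading probe set of Ccnd1 stood higher in all 4 KO arrays, while the differences of the proliferation genes were below 0 in KO CD29hi. Ccnd1 and the proliferation genes thus lay on opposite sides of 0 in that gate, and neither passed the test.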

How the data were processed

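Each of the 8 sorted samples was hybridised to 1 Affymetrix mouse array. The deposited values are log2 levels per probe set. How the authors normalized them is not stated in the sources used here. That they are log2 was inferred from their range, 0.0 to 14.42, and the array medians of 5.45 to 5.67. RNA was amplified with a NuGEN FFPE kit, per the labels' protocols. No further normalization was applied.

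Of the probe sets, 34958 carry 1 gene, 932 several and 9211 none in the platform annotation of 2016, and 34754 matched a RefSeq gene ID of GRCm38. Each gene was represented by its probe set of highest mean, and a gene was tested if that mean reached the 25th percentile of probe set means (3.51). Differences were fitted with limma 3.58.1 in R 4.3.3 (lmFit on 4 group means, eBayes with a trend, 4 residual and 4.31 prior degrees of freedom) and adjusted by Benjamini-Hochberg over the genes of a contrast. Checks on probe sets other than the leading one come from the same fit over every probe set. Background is the 95th percentile of 27 control probe sets per array, and "at least" folds use it for groups with both arrays at or below it. The adjusted p beside such a fold is that of the fit to the values as deposited. The number of arrays limits the precision, and the labels call the replicates biological without saying how they were separated. Motifs and figures were made with Python 3.11.15 and matplotlib 3.10.9.

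The members and the gene lists were chosen with earlier results of these data known. Named were all members, and from each list, per contrast, at most 4 genes past the threshold or, where none passed, the 2 of smallest p. Alternatives were quantile normalization, every probe set tested, a filter at the 50th percentile or none, the mean of probe sets per gene, array weights, eBayes without a trend, a fit of only the arrays compared, values raised to at least 4, a replicate block, a random block for the pool, each array left out in turn, and KO CD29lo replicate 1 and WT CD29lo replicate 2 left out together.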

Additional observations from a re-analysis of the deposited data

How the results depend on the processing

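The count of the 10 members called stayed at 0 between KO and WT over 20 alternatives in each gate, and over 19 averaged over the gates and for the interaction, where a fit of only the arrays compared has no value. Between the gates with the genotypes averaged, the count of 3 ranged from 2 to 4. Within KO the count of 1 became 2 by quantile normalization, array weights, or KO CD29lo replicate 1 and WT CD29lo replicate 2 left out together, 3 by the filter at the 50th percentile, 4 by the mean of probe sets, and 1 to 2 with 1 array left out. Within WT the count of 1 became 2 by quantile normalization, that filter, the mean of probe sets, array weights or those 2 arrays left out, 0 by eBayes without a trend, and 0 to 2 with 1 array left out. The causes were not tested. The counts with a replicate block were 3 within KO (Ccnd2, Cdkn1b and Cdkn1c), 2 within WT (Cdk4 and Cdkn1b), 4 with the genotypes averaged and 0 for KO against WT. By that block Cdkn1c passed within KO (adjusted p = 0.0154) and over both genotypes (adjusted p = 0.0141). The labels speak of 2 paired sets but do not tie the replicate numbers to them, and the deviations of same-numbered arrays correlated at 0.0056 to 0.321 between groups, so whether the numbers pair the samples is not settled.

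Of 1370 values of single genes, 1282 kept their direction and side of the threshold, 23 newly passed, 12 no longer passed and 53 changed sign. The sign changes were of differences that do not pass as reported. Those by method were, by the mean of probe sets, for Ccnd3, 0.073 (KO minus WT in CD29lo), -0.60 (interaction), -1.36 (gates in KO), -0.77 (gates in WT) and -1.06 (gates averaged), of which -1.36 and -1.06 passed (adjusted p = 0.0293 and 0.0130 by limma), for Ccnd1 -0.24 and for Rb1 0.048 (gates in KO), and by quantile normalization 0.019 for Rb1 (KO minus WT in CD29lo). With the 2 arrays left out together, KO minus WT in CD29lo became 0.86 for Ccnd2, 0.42 for Ccnd3, 0.31 for Cdk4 and 0.32 for Cdkn1c, and averaged over the gates 0.59 for Ccnd2, 0.10 for Ccnd3, 0.02 for Cdk4 and -0.21 for Rb1. The interaction became -0.54 for Ccnd2 and -0.63 for Ccnd3, and the gate difference -0.085 for Ccnd3 and 0.40 for Rb1 in KO, 0.20 for Cdkn1c in WT and 0.11 for Rb1 averaged. With 1 array left out, values spanning 0 for KO minus WT in CD29lo were -2.10 to 0.27 for Ccnd2, -0.70 to 0.28 for Ccnd3, -0.45 to 0.10 for Cdk4, -0.035 to 0.095 for Cdkn1b, -1.79 to 0.17 for Cdkn1c and -0.52 to 0.49 for Rb1. In CD29hi Rb1 spanned -0.20 to 0.34. Averaged over the gates the ranges were -0.89 to 0.30 for Ccnd2, -0.46 to 0.033 for Ccnd3 and -0.22 to 0.28 for Rb1. For the interaction they were -0.48 to 0.49 for Ccnd3, -0.36 to 0.17 for Cdk4, -0.14 to 0.11 for Cdkn1a and -0.41 to 0.58 for Rb1. For the gates they were -0.065 to 0.27 for Ccnd1, -0.085 to 0.20 for Ccnd3 and -0.60 to 0.40 for Rb1 in KO, -0.43 to 0.55 for Ccnd3 and -1.76 to 0.20 for Cdkn1c in WT, and -0.19 to 0.30 for Ccnd3 and -0.40 to 0.10 for Rb1 averaged. Where 1 array is left out, or those 2 together, the lone array of a group is taken to vary as the groups with both arrays do. Signal limits Cdkn1c and 1 probe set each of Ccnd2, Ccnd3 and Rb1, which were under background on 1 array. It limits the dimmest Ccnd3 probe set more, which was above background on only 1 of the 8 arrays.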
